A study of Mus musculus with 16 samples.

Results

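The 125 odorant receptor genes described here carry the symbols Olfr987 to Olfr1199 and lie on mouse chromosome 2. They were chosen by symbol: every Olfr gene numbered 987 to 1199 that the array measured, without pseudogenes and without 18 symbols of that span (Olfr1032, Olfr1042, Olfr1045, Olfr1054, Olfr1056, Olfr1093, Olfr1122, Olfr1123, Olfr1132, Olfr1135, Olfr1137, Olfr1140, Olfr1152, Olfr1161, Olfr1178, Olfr1182, Olfr1184 and Olfr1198). The 18 were set aside with earlier results of these arrays known and hold many of the span's strongest smoke responses. Counts are therefore also given for all 143 measured symbols of the span. The 18 are counted among the 955 other odorant receptors used for comparison. The 125 members are 125 of 1080 odorant receptors measured and of 19505 genes in all. All 125 matched a RefSeq gene on chromosome 2, and their numbers follow their order along the chromosome in each of 124 steps from one member to the next. Each has a single probe set.

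Gene expression was measured on 16 arrays, 4 per group, from S100a5-tauGFP mice of both sexes aged 7 to 12 weeks. Green fluorescent protein (GFP) reports S100a5, a calcium-binding protein gene that olfactory sensory neurons express more strongly after recent activity. The 24 mice sat singly for 40 h in chambers ventilated with clean air at 3.1 L/min. From 26 h on they received pulses of 10 s, repeated every 20 min. The smoke groups received cigarette smoke odour and the vehicle groups filtered air. Olfactory mucosa was pooled from 3 mice, dissociated and sorted for fluorescence, and each of the 8 pools gave a GFP+ and a GFP- array. The groups were smoke GFP+, smoke GFP-, vehicle GFP+ and vehicle GFP- cells. All mice carried the reporter, so no group lacks it. The series text speaks of bourgeonal, another odorant, but the sample labels speak of cigarette smoke, and the text below goes by the labels.

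Odorant receptors are G protein-coupled receptors in the cilia of olfactory sensory neurons, where bound odorants raise cyclic AMP through the G protein subunit encoded by Gnal and open the Cnga2 channel. A mature neuron expresses 1 receptor allele out of the whole repertoire, so the level of a receptor's mRNA in sorted tissue reflects how many neurons chose it and how much RNA each makes. These cannot be told apart in pooled cells. The receptor genes stand in clusters that arose by gene duplication, and the chromosome 2 cluster is among the large ones. For most of its members the ligand is unknown, and no ligand is assumed below.

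The sort was checked on genes outside the receptor family. S100a5 itself was higher in GFP+ than in GFP- cells by 1.21 in vehicle and 1.15 in smoke mice (log2, limma, adjusted p = 2.88e-06 and 6.45e-06). Omp, a marker of mature olfactory neurons, differed by 0.10 and 0.12 (adjusted p = 0.37 and 0.288), and its means were 18.1 to 18.3 in the 4 groups. The Omp values and the S100a5 values of GFP+ cells lie above 16, where the scale may be stretched. The Omp values therefore do not show that the fractions held equal shares of neurons. The 9 measured immune markers averaged 8.1 to 8.65 on GFP+ arrays and 12.5 to 13.7 on GFP- arrays, and 9 of 9 were lower in GFP+ cells of vehicle mice and 7 of 9 in smoke mice. The 10 sustentacular (support cell) markers averaged 11.8 and 12.1 on smoke GFP+ arrays 2 and 4, against 11.2 on arrays 1 and 3 and at most 11.4 on vehicle GFP+ arrays. On the GFP- arrays of smoke pools 2 and 4 they averaged 11.8 and 12.2, against 11.7 to 12.0 on vehicle GFP- arrays. Leaving out these pools also leaves fewer smoke pools to test. The part of the immune signal in the receptor values was not tested, and values without smoke pools 2 and 4 stand beside the smoke results. The replicates are separate pools of mice. The p-values rest on how far arrays of one group differ, with a single spread per gene shared by the 4 groups. The main fit did not use that both fractions come from the same pools.

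Sequences upstream of the members are shown for the pair of receptors that fell in GFP- cells after smoke (Olfr1034 and Olfr1099) and for the receptor with the largest sort difference (Olfr1043). RefSeq windows of 300 bases, 250 before to 50 after the gene start (GRCm38.p6), were found for 101 of the 125 members, in 102 windows. They are given 5′ to 3′ on the gene's strand, from chr2:86046194-86046493 (plus strand) for Olfr1034, chr2:86959407-86959706 (minus strand) for Olfr1099 and chr2:86162898-86163197 (minus strand) for Olfr1043. Capitals mark matches on either strand to TAATTG or TAATGA, core letters of homeodomain factors such as Lhx2 and Emx2, or to CCCNNGGG, core letters of the Olf-1/EBF factors. No capitals means no match.
Olfr1034: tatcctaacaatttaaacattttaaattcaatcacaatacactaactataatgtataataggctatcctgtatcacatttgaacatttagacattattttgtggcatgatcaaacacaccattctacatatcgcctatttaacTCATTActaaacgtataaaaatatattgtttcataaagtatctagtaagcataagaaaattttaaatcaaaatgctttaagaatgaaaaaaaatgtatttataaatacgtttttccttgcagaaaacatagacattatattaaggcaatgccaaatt
Olfr1099: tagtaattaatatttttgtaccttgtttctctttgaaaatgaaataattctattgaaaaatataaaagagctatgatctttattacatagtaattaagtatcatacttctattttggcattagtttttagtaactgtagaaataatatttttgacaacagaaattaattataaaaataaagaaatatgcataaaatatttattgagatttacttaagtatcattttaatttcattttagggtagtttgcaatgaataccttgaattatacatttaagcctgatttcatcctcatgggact
Olfr1043: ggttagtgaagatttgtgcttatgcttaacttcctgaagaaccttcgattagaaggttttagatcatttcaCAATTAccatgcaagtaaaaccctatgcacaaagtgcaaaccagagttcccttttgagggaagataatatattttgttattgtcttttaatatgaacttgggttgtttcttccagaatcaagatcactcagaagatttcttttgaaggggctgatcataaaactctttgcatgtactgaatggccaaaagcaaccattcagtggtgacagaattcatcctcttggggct
Olfr1034 held 1 TAATGA, Olfr1043 held 1 TAATTG and Olfr1099 held none of the 3 motifs. The Olfr1099 and Olfr1043 windows have an ATG at the gene start, as do 70 of the 102 member windows (68.6%) and 603 of 823 windows of other receptors (73.3%). Such a gene model may begin at the protein's start codon, and its window then need not be the promoter.

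Among the members' windows 31 of 102 (30.4%) held TAATTG, 33 (32.4%) held TAATGA and 1 (0.98%) held CCCNNGGG. Of the 823 windows of other odorant receptors, 22.6%, 28.9% and 3.16% held them, and of 32851 windows of all genes 8%, 9.78% and 13.7%. The motifs have different base makeup, and the windows do too: the median GC content was 31.3% for the members, 35.7% for other receptors and 52.7% for all genes. TAATTG and TAATGA share TAAT and 52 member windows (51%) held at least 1 of these 2 motifs, against 44% of other receptor windows. A match is a description of letters and not of a site in use.

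Most members had more mRNA in GFP+ than in GFP- cells in mice breathing clean air. A member was called where its Benjamini-Hochberg adjusted p over all 19505 genes was at most 0.05 in the limma fit. In vehicle mice 75 of 125 members (60%) were higher in GFP+ cells and 17 (13.6%) were lower. Over all genes 24.2% were called higher and 15.4% lower, and over the 955 other odorant receptors 51.5% were higher and 20% lower. The median difference of the members was 1.32 on the log2 scale, against 0.72 over other receptors and 0.17 over all genes. In smoke mice 82 members (65.6%) were higher and 17 (13.6%) lower, with 18.3% and 14.4% over all genes and 47% and 23.1% over other receptors. The medians there were 1.29 for members, 0.48 for other receptors and 0.15 for all genes. The 18 symbols set aside included 8 that were higher and 8 that were lower in vehicle mice, so the whole span gave 83 higher (58%) and 25 lower (17.5%) of 143.

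These shares move with the reference chosen. With each array centred on its median for other odorant receptors, 60 members were higher and 28 lower in vehicle mice (68.2% of calls higher, against 81.5% as deposited), and 60 and 25 in smoke mice (70.6% against 82.8%). With each array centred on its median over all genes, the median of all genes rose by 0.34 and 0.32 and the members gave 91 higher and 16 lower, and 88 and 16. The vomeronasal receptors, a family of another sense organ whose probe sets mark the level of little or no signal, were themselves higher in GFP+ cells by a median of 0.26 and 0.23. Of the members, 15 lay at or below the 95th percentile of those 319 genes in all 4 groups. Called higher were 5 of the 15 in vehicle mice and 5 in smoke mice, with Olfr1053 only in vehicle and Olfr1188 only in smoke mice. Of the 319 vomeronasal receptors themselves, 45 were called higher in vehicle and 37 in smoke mice, and 0 lower in either. Olfr1058, also of the 15, was called lower in smoke mice. A small difference at the level of the vomeronasal receptors is a difference of dim probe sets.

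**Figure D1:**
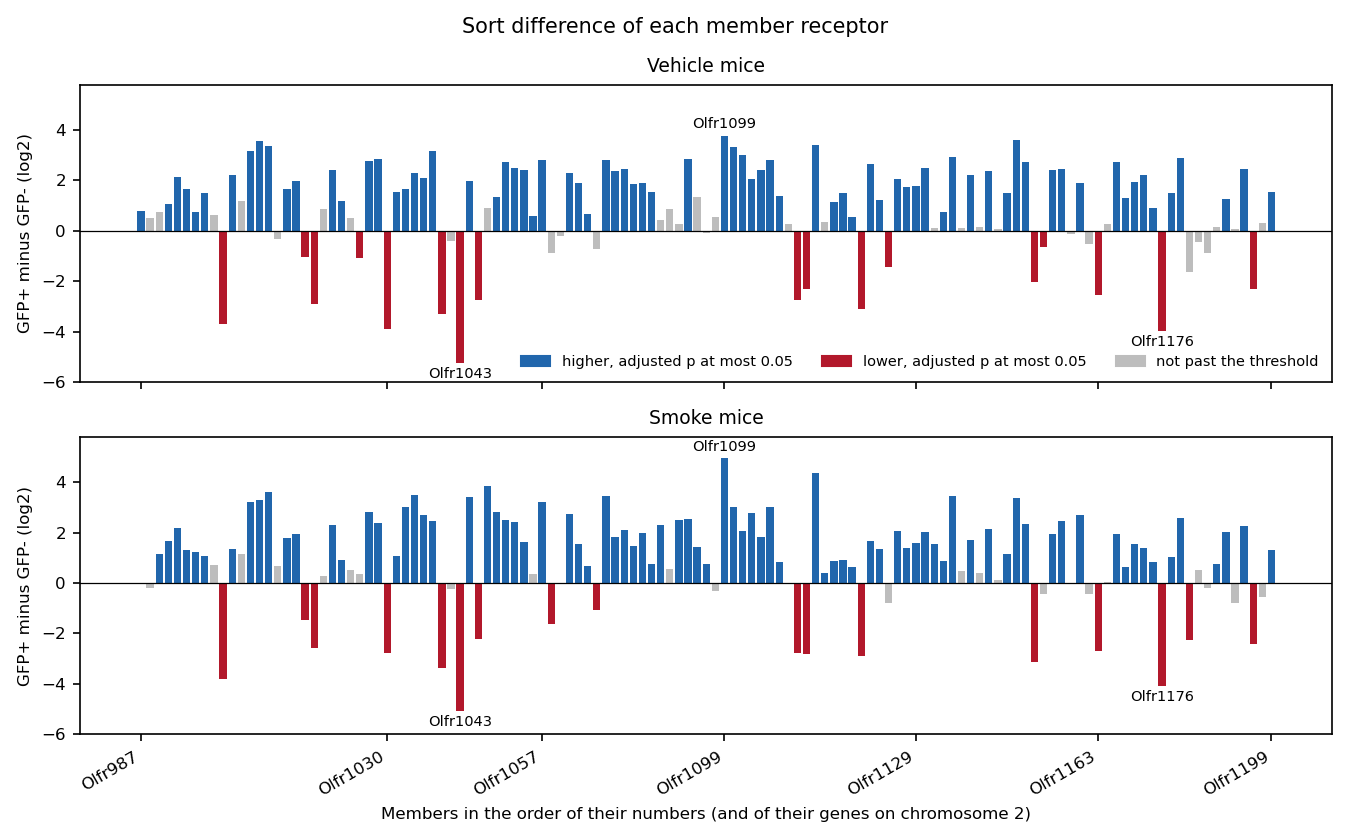
GFP+ minus GFP- difference (log2) of each of the 125 members in vehicle mice (upper) and smoke mice (lower), in the order of their numbers. Blue bars were higher and red bars lower in GFP+ cells at an adjusted p of at most 0.05 and grey bars were neither; lower members such as Olfr1043 and Olfr1176 stand among higher ones.

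Some receptors much higher in GFP+ than in GFP- cells stood far apart on every array. Olfr1099 measured 14.15, 14.38, 13.61 and 14.20 in vehicle GFP+ cells against 10.78, 10.09, 10.21 and 10.17 in GFP- cells of the same pools. The fractions did not overlap, and the difference of 3.77 (SE 0.215, adjusted p = 7.3e-10) was the largest positive one among the members. In smoke mice it was 4.94 (SE 0.215, adjusted p = 5.94e-11), again the largest. Olfr1151 measured 12.07, 11.71, 11.59 and 11.82 in vehicle GFP+ and 7.94, 8.51, 8.81 and 7.51 in vehicle GFP- cells, a gap of 3.61 (SE 0.23, adjusted p = 2.66e-09). Olfr1012 measured 11.69, 12.09, 11.92 and 12.46 against 8.28, 8.37, 8.53 and 8.69, a gap of 3.57 (SE 0.232, adjusted p = 3.17e-09). In both receptors every GFP+ array lay above every GFP- array in each exposure.

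The other members with the smallest p-values were likewise separated. Olfr1126 was steady from array to array, at 10.90, 10.90, 11.20 and 11.11 in vehicle GFP+ and 9.28, 9.07, 8.77 and 8.73 in vehicle GFP- cells, and its gap was 2.07 in vehicle and 2.06 in smoke mice (SE 0.142). Olfr1105 was low in GFP- cells of both exposures, at or below the vomeronasal level, so its gap is a bound of at least 1.64 in vehicle and 1.89 in smoke mice (measured 2.82 and 3.03). The vehicle gaps of Olfr1100, Olfr1013, Olfr1049, Olfr1051, Olfr1157, Olfr1156 and Olfr1143 were 3.34, 3.38, 2.73, 2.49, 2.46, 2.40 and 2.36. In smoke mice Olfr1013, Olfr1034, Olfr1134, Olfr1057 and Olfr1100 differed by 3.62, 3.50, 3.43, 3.21 and 3.00. These members were picked by p-value and not by the width of the gap. Olfr1111, not among them, measured 11.62, 11.77, 10.55 and 11.96 in smoke GFP+ and 6.71, 7.69, 6.43 and 7.69 in smoke GFP- cells. Of the 125 members 67 (53.6%) were called higher in vehicle mice with no overlap between the fractions, against 19.8% of all genes and 47.1% of other receptors, and in smoke mice 68 (54.4%), against 13.4% and 42.2%. Called higher by more than 2 were 41 members (32.8%) in vehicle mice, against 1.25% of all genes and 20.7% of other receptors, and 40 (32%) in smoke mice, against 1.21% and 20%.

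A smaller set of members ran the other way, with more mRNA in the GFP- fraction. Olfr1043 measured 7.11, 6.72, 6.95 and 6.55 in vehicle GFP+ cells and 11.93, 12.18, 12.03 and 12.14 in vehicle GFP- cells. In smoke mice it measured 6.25, 7.48, 7.95 and 7.08 against 12.22, 12.38, 12.32 and 12.07. Its differences of -5.24 (SE 0.249, adjusted p = 1.1e-10) and -5.06 (SE 0.249, adjusted p = 1.87e-10) were the largest of any member in either direction. The GFP- arrays agreed closely and none came near a GFP+ array.

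Olfr1039, close to Olfr1043 on the chromosome, measured 7.72, 8.40, 7.20 and 7.16 in vehicle GFP+ and 10.58, 11.14, 10.73 and 11.24 in vehicle GFP- cells, a difference of -3.30 (SE 0.271, adjusted p = 5.41e-08). Olfr1176 varied more between pools: its vehicle GFP+ values were 8.23, 12.02, 10.62 and 9.39 and its smoke GFP+ values 9.09, 11.38, 10.39 and 9.36. All of them lay below its GFP- values of 13.31 to 14.64, and the differences were -3.96 (SE 0.628, adjusted p = 9.7e-05) and -4.07 (adjusted p = 8.52e-05). Its GFP+ values took the same order by replicate number in both exposures, although the pools are different mice. The reason was not tested. Olfr1030 differed by -3.90 in vehicle and -2.79 in smoke mice, and Olfr1002 by -3.69 and -3.79. The smoke GFP+ mean of Olfr1002 was at the vomeronasal level, so that its smoke difference is a bound of at least 3.10 in size. Olfr1118, Olfr1109, Olfr1163, Olfr1196, Olfr1046, Olfr1110 and Olfr1019 differed by -3.10, -2.74, -2.56, -2.29, -2.76, -2.29 and -2.89 in vehicle mice. Their smoke differences ran from -2.22 (Olfr1046) to -2.90 (Olfr1118), and Olfr1163 lay at the vomeronasal level in smoke GFP+ cells.

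**Figure D2:**
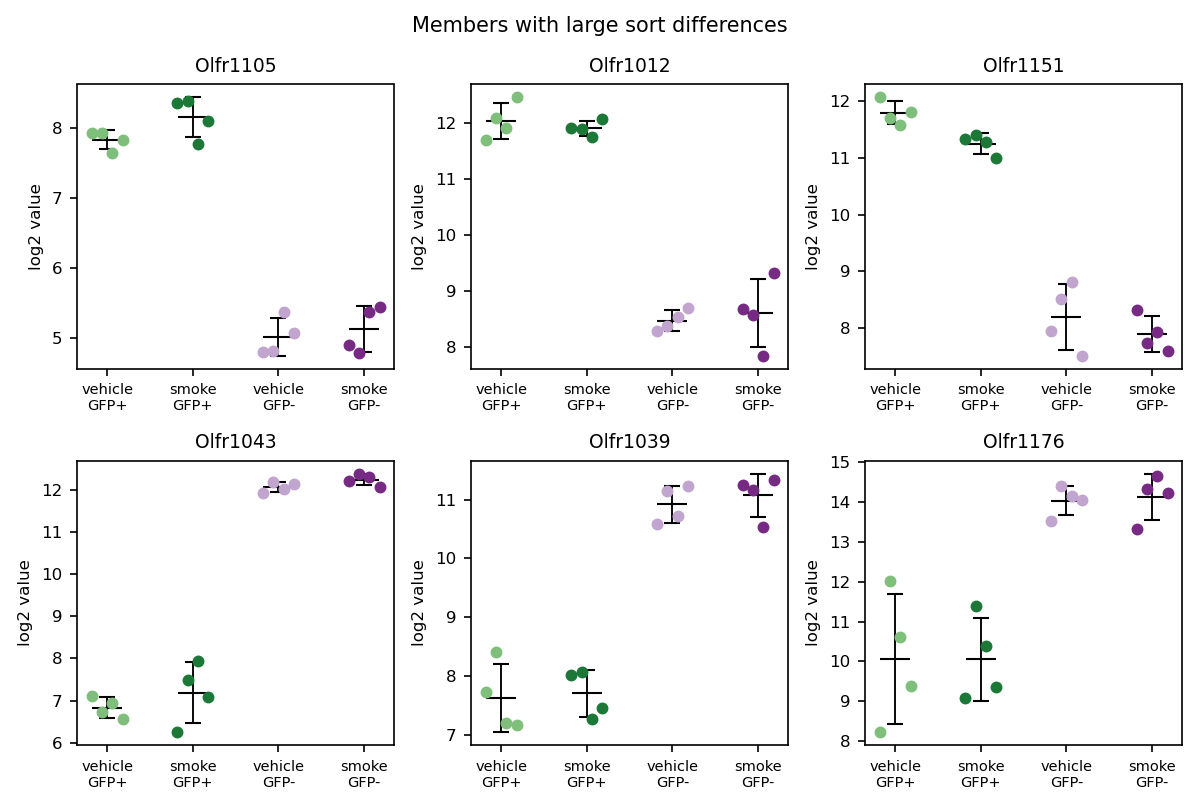
Log2 values of Olfr1105, Olfr1012, Olfr1151, Olfr1043, Olfr1039 and Olfr1176 on each array, pools 1 to 4 from left to right, in vehicle GFP+, smoke GFP+, vehicle GFP- and smoke GFP- cells, with mean and SD (n = 4); the vertical axes do not start at 0. In all 6 receptors the GFP+ and GFP- arrays of either exposure do not overlap.

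The sort placed nearly the same members on each side in the 2 exposures, which share no arrays. Of the members higher in GFP+ cells, 73 were called in both (97.3% of the vehicle list and 89% of the smoke list). Lower in both were 14 members (82.4% of each list): Olfr1002, Olfr1018, Olfr1019, Olfr1030, Olfr1039, Olfr1043, Olfr1046, Olfr1109, Olfr1110, Olfr1118, Olfr1154, Olfr1163, Olfr1176 and Olfr1196. No member was called higher in one exposure and lower in the other, 115 had the same sign in both, and 21 passed in neither. These counts were not made over other receptors or all genes, so they do not set the members apart. Over the members the differences of the 2 exposures correlated with Pearson r 0.933 and Spearman rho 0.891, given as a description over 125 genes that share their arrays (r 0.913 over other receptors).

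**Figure D3:**
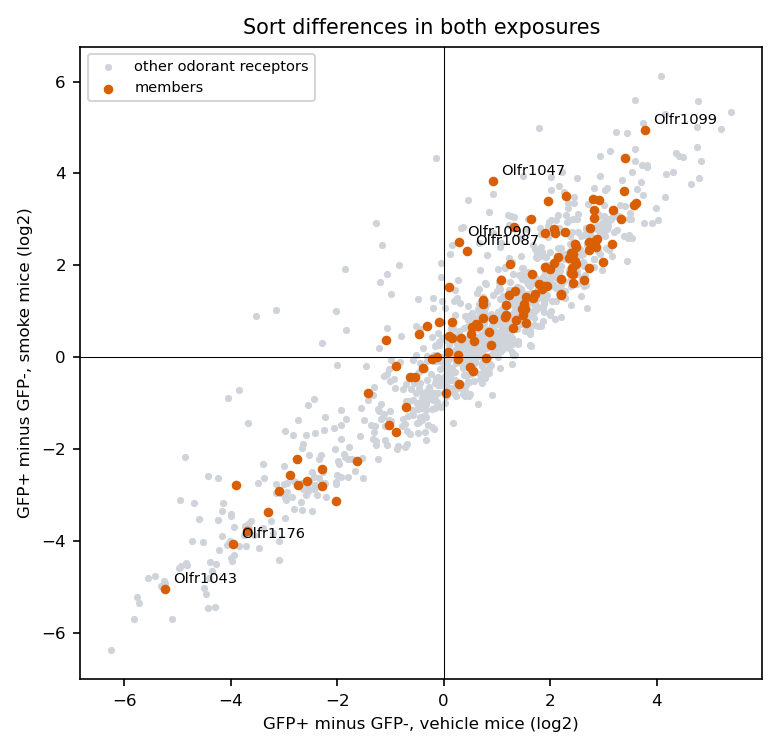
GFP+ minus GFP- difference (log2) in vehicle mice (horizontal) against smoke mice (vertical) for the 125 members (orange) and the 955 other odorant receptors (grey). Members follow the diagonal from Olfr1043 at -5.24 and -5.06 to Olfr1099 at 3.77 and 4.94; Olfr1047, Olfr1090 and Olfr1087 lie above it.

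Members called in either direction were spread along the whole span. The number span was divided into 3 blocks of equal width, which hold 45 (Olfr987 to Olfr1057), 40 (Olfr1058 to Olfr1128) and 40 members (Olfr1129 to Olfr1199). In vehicle mice 28, 25 and 22 of them were higher and 8, 4 and 5 lower, with median differences of 1.32, 1.43 and 1.09. In smoke mice 28, 30 and 24 were higher and 7, 5 and 5 lower, with medians of 1.29, 1.41 and 0.95. Over other receptors 51.5% were higher and 20% lower in vehicle mice, and 47% and 23.1% in smoke mice. Over all genes the shares were 24.2% and 15.4%, and 18.3% and 14.4%. Blocks of other receptors were not counted, so the spread does not set the members apart. The member with the largest difference was Olfr1043, Olfr1099 and Olfr1176 in the 3 blocks, in both exposures. There are 108 pairs of members that follow each other with no symbol of the span set aside between them. Both members of 61 such pairs were called in vehicle mice, 46 of them the same way, and in smoke mice 70 and 53. Of the members' calls 81.5% and 82.8% were on the higher side, so pairs of any members would often agree. The share for pairs that are not neighbours was not computed, and these counts do not show that neighbours are alike. Neighbours that were both lower were Olfr1018 with Olfr1019 and Olfr1109 with Olfr1110, and in vehicle mice also Olfr1154 with Olfr1155. The likeness of neighbouring genes' sequences was not examined, and a probe set may also catch a close relative's mRNA.

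After smoke few members passed the test, and the change of each fraction was small over the members as a whole. In GFP+ cells the median smoke difference was -0.06 (all genes -0.00, other receptors -0.05), and in GFP- cells it was 0.08 (all genes 0.01, other receptors 0.18). In GFP+ cells 1 member was called higher and none lower by limma, while 0.103% of all genes and 1.47% of other receptors were higher and 0.00513% and 0.105% lower. At an unadjusted p below 0.05 there were 14 members (11.2%), 10 higher and 4 lower, against 4.8% of all genes and 18.7% of other receptors. In the whole span of 143 symbols 4 were called higher and 1 lower. In GFP- cells 2 members were called lower and none higher. There 0.113% of all genes and 2.09% of other receptors were lower and 0.0154% and 0.105% higher. The members with an unadjusted p below 0.05 were 20 (16%), 7 higher and 13 lower, against 5.72% and 21.3%, and the whole span gave 8 called lower. Of the span's 5 calls in GFP+ and 8 in GFP- cells, 4 and 6 belong to the 18 symbols set aside, so the members' shares depend on that choice. The shares of other receptors depend on it too, because the 18 are among them. In GFP+ cells the 18 gave 3 of the 14 higher calls of other receptors and their 1 lower call. In GFP- cells they gave 6 of the 20 lower calls.

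Olfr1087 was the receptor that rose in GFP+ cells. It measured 10.68, 10.48, 10.63 and 10.71 in vehicle GFP+ cells and 11.51, 12.32, 12.11 and 12.11 in smoke GFP+ cells, with no overlap. The rise was 1.39 (SE 0.211, adjusted p = 0.00898). In GFP- cells its vehicle values were 10.22, 9.93, 9.85 and 10.76 and its smoke values 9.73, 10.08, 9.26 and 9.72, which overlap (difference -0.49, SE 0.211, adjusted p = 0.854). Without smoke GFP+ replicate 2 the rise had an adjusted p of 0.0515. Without smoke pools 2 and 4, whose GFP+ arrays had the high sustentacular signal, it was 1.19 (SE 0.252, adjusted p = 0.342).

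Olfr1090, a little further along the chromosome, measured 9.62, 10.14, 9.94 and 10.29 in vehicle GFP+ cells and 11.18, 11.52, 11.27 and 11.30 in smoke GFP+ cells. The arrays did not overlap, and the difference of 1.32 (SE 0.251) had an adjusted p of 0.0647, which misses the threshold of 0.05. It passed without smoke GFP- replicate 1 or 3, and without smoke pools 2 and 4 it was 1.23 (SE 0.349, adjusted p = 0.824). In GFP- cells it measured 9.59, 10.07, 9.52 and 9.66 after vehicle and 9.69, 8.65, 8.07 and 8.87 after smoke (difference -0.89, SE 0.251, adjusted p = 0.443). Olfr1047 measured 8.73, 8.73, 7.69 and 9.64 in vehicle GFP+ and 10.25, 10.16, 9.67 and 10.40 in smoke GFP+ cells (difference 1.42, SE 0.414, adjusted p = 0.557). It was 6.96, 8.42, 7.06 and 8.68 in vehicle GFP- and 6.72, 6.10, 5.68 and 6.67 in smoke GFP- cells (difference -1.49, adjusted p = 0.436). Olfr1131 differed by 0.83 in GFP+ and by -0.60 in GFP- cells (SE 0.243, adjusted p = 0.562 and 0.821), and its 4 smoke GFP+ arrays lay between 10.30 and 10.35, above all 4 vehicle GFP+ arrays (9.38 to 9.71). Without smoke pools 2 and 4 the GFP+ differences of Olfr1047 and Olfr1131 were 1.26 (SE 0.575) and 0.83 (SE 0.263). Olfr1047, Olfr1087, Olfr1090 and Olfr1131 were the 4 members with a higher value in GFP+ and a lower one in GFP- cells at an unadjusted p below 0.05 in each. The share of other receptors or all genes passing both was not counted. In either direction, other receptors passed the single tests more often than members (18.7% against 11.2% in GFP+, 21.3% against 16% in GFP- cells).

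**Figure D4:**
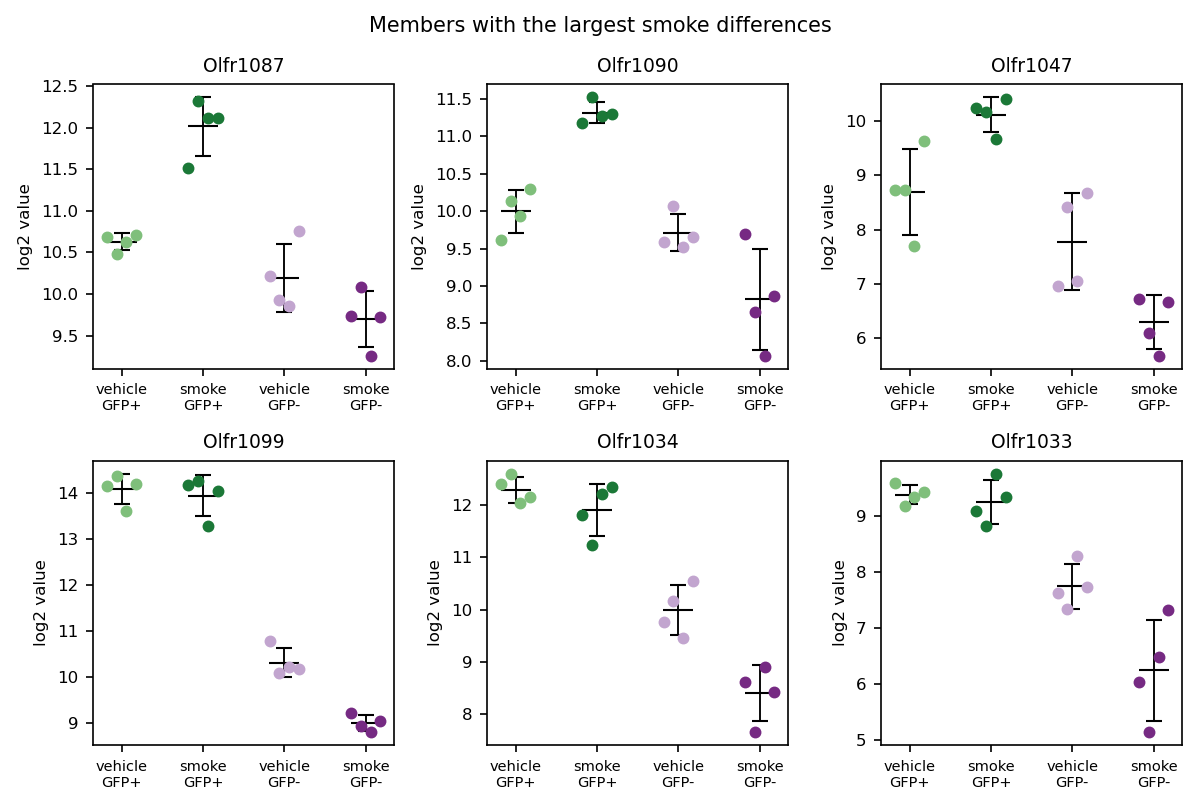
Log2 values of Olfr1087, Olfr1090, Olfr1047, Olfr1099, Olfr1034 and Olfr1033 on each array, pools 1 to 4 from left to right, in the 4 groups, with mean and SD (n = 4); the vertical axes do not start at 0. Smoke GFP+ arrays lie above vehicle GFP+ arrays in the upper row, and smoke GFP- arrays lie below vehicle GFP- arrays in the lower row.

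The called falls were in the GFP- fraction. Olfr1099, the member with the largest positive sort difference, measured 10.78, 10.09, 10.21 and 10.17 in vehicle GFP- and 9.22, 8.94, 8.80 and 9.04 in smoke GFP- cells. The fall was 1.31 on the log2 scale (difference -1.31, SE 0.215, adjusted p = 0.0164) with no overlap. Its GFP+ values of 13.61 to 14.38 after vehicle and 13.29 to 14.27 after smoke overlapped (difference -0.14, SE 0.215, adjusted p = 0.999). Olfr1034 measured 9.76, 10.17, 9.46 and 10.55 in vehicle GFP- and 8.61, 7.66, 8.91 and 8.42 in smoke GFP- cells, also without overlap (difference -1.59, SE 0.286, adjusted p = 0.0362). Its GFP+ values ran from 12.03 to 12.59 after vehicle and from 11.24 to 12.34 after smoke (difference -0.39, adjusted p = 0.999). The Olfr1099 call was lost without smoke GFP- replicate 2 or 3 or vehicle GFP- replicate 1, with adjusted p up to 0.077. Without smoke pools 2 and 4 the difference was -1.30 (SE 0.283, adjusted p = 0.308). The Olfr1034 call was lost without smoke GFP- replicate 1, 2 or 4, smoke GFP+ 1, vehicle GFP- 1, 2 or 4 or vehicle GFP+ 1, 3 or 4, with adjusted p up to 0.167. Without both smoke pools its difference was -1.23 (SE 0.272, adjusted p = 0.335).

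Olfr1033, next to Olfr1034, measured 7.63, 7.34, 8.29 and 7.73 in vehicle GFP- and 6.04, 5.14, 6.48 and 7.32 in smoke GFP- cells. Its smoke mean lay at the vomeronasal level, so the difference of -1.50 (SE 0.337, adjusted p = 0.179) is a bound of at least 1.12 in size. Olfr1134 differed by -0.95 (SE 0.246, adjusted p = 0.345). Olfr1111 differed by -1.39, more than the called Olfr1099 (-1.31), but was not called and its arrays overlapped. Without smoke pools 2 and 4 the differences of Olfr1033 and Olfr1134 were -1.49 and -0.55 (adjusted p = 0.142 and 0.897). Besides Olfr1034, Olfr1099 and Olfr1033, the members without overlap in GFP- cells on the lower side were Olfr1036 and Olfr1047. These 5 are 4% of the members, against 1.3% of all genes and 4.92% of other receptors. On the higher side the smallest p-values in GFP- cells were those of Olfr1115 (0.66), Olfr1170 (0.68), Olfr1058 (1.02, dim in all 4 groups) and Olfr1120 (0.74), with adjusted p from 0.625 to 0.673. In GFP+ cells the lower members with the smallest p-values were Olfr1153 (-1.18), Olfr987 (-0.48), Olfr1151 (-0.54) and Olfr988 (-0.46), with adjusted p of 0.839 to 0.999. Of these, Olfr1151 alone had no overlap, at 11.59 to 12.07 after vehicle and at most 11.41 after smoke.

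Some members that were lower in GFP+ cells of vehicle mice had higher values in smoke GFP+ cells. Olfr1026 was one of the 3 members lower in GFP+ cells in vehicle mice only, with Olfr1124 and Olfr1155. Its sort difference was -1.08 in vehicle (adjusted p = 0.0109) and 0.37 in smoke mice (adjusted p = 0.372), and its smoke difference in GFP+ cells was 1.00 (SE 0.308, adjusted p = 0.661). Olfr1030 had a smoke difference of 1.16 in GFP+ and 0.05 in GFP- cells (SE 0.368, adjusted p = 0.694 and 0.993). None of these smoke differences passed the test. The sort and smoke differences share arrays, so these values stand side by side only.

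The exposure changed the sort difference itself in 2 members. This was tested as the difference between the smoke effects in GFP+ and GFP- cells, which is the change of the GFP+ to GFP- ratio. Olfr1090 had a sort difference of 0.28 in vehicle (adjusted p = 0.387) and 2.50 in smoke mice (adjusted p = 6.76e-07), and the ratio rose by 2.22 (SE 0.355, adjusted p = 0.0101). Olfr1087 went from 0.44 (adjusted p = 0.112) to 2.31 (adjusted p = 2.13e-07), a rise of 1.88 (SE 0.298, adjusted p = 0.00977). Both were called higher in GFP+ cells in smoke mice and in neither direction in vehicle mice. Over all genes 0.169% rose and 0.00513% fell in this ratio, and over other receptors 2.93% and 0.105%. With all 143 symbols of the span 7 rose and none fell. The 18 symbols set aside gave 5 of the 28 rises among other receptors.

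Olfr1047 had the largest ratio difference of any member, 2.91 (SE 0.585), with an adjusted p of 0.0722. It passed with the arrays of each pool kept together as a replicate block (adjusted p = 0.00651). Its sort difference was 0.92 in vehicle (adjusted p = 0.0889) and 3.83 in smoke mice (adjusted p = 1.6e-06). Olfr1131 followed at 1.43 (SE 0.344, adjusted p = 0.219). At an unadjusted p below 0.05 there were 19 members (15.2%), 13 with a higher and 6 with a lower ratio, against 5.71% of all genes and 27.2% of other receptors. The lower ones with the smallest p-values were Olfr987 (-0.80), Olfr1197 (-0.87), Olfr1120 (-0.96) and Olfr1170 (-0.82), with adjusted p of 0.617 to 0.825. Olfr1197 and Olfr1193 hold the 4 member values above 16, where the scale may be stretched. Without smoke pools 2 and 4 the ratio of Olfr1090 was 2.06 (adjusted p = 0.569) and that of Olfr1087 was 1.88 (adjusted p = 0.205). Those of Olfr1047 and Olfr1131 were then 2.84 (SE 0.813, adjusted p = 0.887) and 0.99 (SE 0.372, adjusted p = 0.999).

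**Figure D5:**
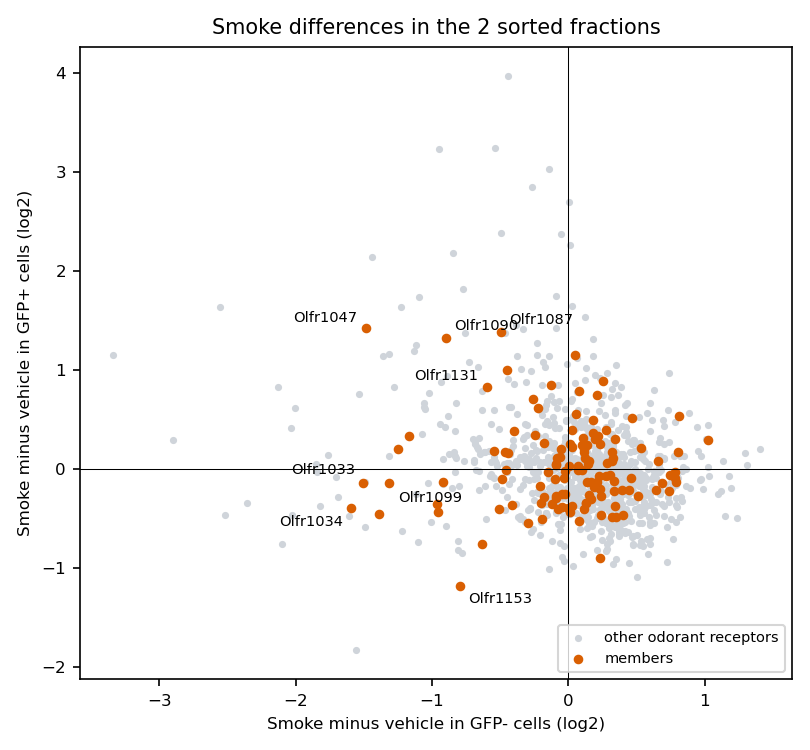
Smoke minus vehicle difference (log2) in GFP- cells (horizontal) against GFP+ cells (vertical) for the 125 members (orange) and the 955 other odorant receptors (grey). Olfr1047, Olfr1090, Olfr1087 and Olfr1131 lie in the upper left, at 1.42, 1.32, 1.39 and 0.83 in GFP+ and -1.49, -0.89, -0.49 and -0.60 in GFP- cells; Olfr1034, Olfr1033 and Olfr1099 lie far left near the horizontal axis.

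Members next to the symbols set aside were looked at separately. The nearest member on each side of each of the 18 symbols gave 29 members. In GFP+ cells none of the 29 was called by limma after smoke, 6 (20.7%) had an unadjusted p below 0.05 (4 higher, 2 lower) and the median was 0.06. In GFP- cells none was called, 6 (20.7%) had an unadjusted p below 0.05, all 6 on the lower side, and the median was 0.01. Over other receptors these shares were 18.7% and 21.3%, and over all genes 4.8% and 5.72%. In the ratio 1 of the 29, Olfr1090, was called. Of the other 96 members Olfr1087 was called in GFP+ cells and in the ratio, and Olfr1034 and Olfr1099 in GFP- cells. Their medians were -0.08 and 0.12 in the 2 fractions. In vehicle mice 15 of the 29 neighbours (51.7%) were higher in GFP+ cells and 4 (13.8%) lower, with a median of 0.58, while 60 of the 96 (62.5%) were higher and 13 (13.5%) lower, with a median of 1.43. Over other receptors 51.5% were higher and 20% lower, and over all genes 24.2% and 15.4%.

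The other genes of the olfactory neuron were described beside the members. Of 15 mature neuron genes, among them Gnal, Adcy3 and Cnga2 of the odorant signalling chain, 9 were higher in GFP+ cells in vehicle mice and 6 in smoke mice, with medians of 0.34 and 0.24. Of 14 factors of receptor choice and expression, such as Lhx2, Ebf1 and Rtp1, 4 and 2 were higher, with medians of 0.24 and 0.08. All 4 activity-raised genes were higher in vehicle and 3 in smoke mice, with medians of 1.27 and 1.20. Immature neuron genes had 2 higher and 4 lower of 10 in vehicle mice and none higher and 4 lower in smoke mice. After smoke the median of the mature neuron genes moved by -0.00 in GFP+ and 0.07 in GFP- cells and that of the 4 activity-raised genes by 0.44 and 0.35. None of these 4 was called by limma after smoke in either fraction (lowest adjusted p = 0.179, S100a5 in GFP- cells), and Kirrel2 ran the other way, at -0.60 and -0.51 (adjusted p = 0.999 and 0.938). Over the same comparisons the members' medians were -0.06 and 0.08. Levels of different probe sets are not comparable, so only differences between groups are set side by side.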

How the data were processed

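Values of 16 Clariom S mouse arrays (biotin-labelled cRNA from 50 to 100 ng of total RNA) were used on the log2 scale as the authors deposited them. They run from 2.29 to 18.6, and the sorted values of arrays differ by at most 0.346, so they had been normalized between arrays. The submitters' processing notes name Affymetrix Expression Console; version, algorithm and array build are not stated there. Of 28846 probe sets 19572 had 1 symbol, 9274 had none and 0 had several; a gene was its probe set of highest mean.

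With limma 3.58.1 (lmFit, eBayes) under R 4.3.3, models with 4 group means were fitted to all arrays, with 5 contrasts, two-sided p-values and Benjamini-Hochberg adjustment over 19505 genes at 0.05, and were tested on simulated data. A group lies at the vomeronasal level where its mean does not exceed the mean over its arrays of the 95th percentile of 319 vomeronasal receptors (6.14 to 6.78), and differences against it are bounds. Named members are those past the threshold, up to 12 a direction by smallest p, filled up to 4 by p where fewer passed. Others are named as members of small counts or for the size of their difference. GFP+ and GFP- arrays of one number come from the same mice, and their residuals correlated with r of 0.0453 to 0.22. The main fit did not pair them. Smoke and vehicle arrays of one number correlated with r of -0.0841 to 0.198 and were not taken as pairs. The members and lists were chosen with earlier results of these data known. Alternatives covered scaling, variance model, filter, blocks, probe sets, the 18 symbols, each array and 2 pools. RefSeq names and windows were used from GRCm38.p6 tables, and figures were drawn with matplotlib 3.10.9.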

Additional observations from a re-analysis of the deposited data

Results flagged for a closer look

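Among 168 groups of 4 arrays tested over the 40 members named by rule, S100a5 and Omp, 4 had an array far from the other 3, where chance alone gives about 1 in 20. Olfr1051 measured 10.33 on vehicle GFP+ array 3, against 9.88 to 9.89 on the others. Olfr1115 measured 8.36 on vehicle GFP+ array 1, against 9.19 to 9.30. Olfr1157 measured 9.95 on vehicle GFP- array 3, against 10.38 to 10.42. Olfr1163 measured 8.38 on smoke GFP- array 3, against 9.38 to 9.44.

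The smoke effect differed between GFP+ and GFP- cells, by limma's interaction term, in Olfr1087 (ratio difference 1.88, adjusted p = 0.00977) and in Olfr1090 (2.22, adjusted p = 0.0101). In each, the value was higher after smoke on 4 of 4 GFP+ arrays than on any vehicle GFP+ array. Among all members 6 had no such overlap on the higher and 2 on the lower side in GFP+ cells. The shares of all genes and other receptors without overlap there were not counted.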

How the results depend on the processing

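Of the values of single members under the alternatives, 1824 kept their direction and their side of the threshold, 21 no longer passed, 18 newly passed and 0 changed sign. The 12 members of smallest p in each direction of each sort comparison kept their calls in all alternatives run for them; the sort calls of other members were followed only as counts. The single-gene smoke calls are the least steady, and all 21 losses fell on them. In GFP- cells Olfr1034 lost its call in 13 of 26 alternatives and Olfr1099 in 4 of 26. Olfr1087 lost its call in GFP+ cells in 2 of 26, and in the ratio Olfr1087 and Olfr1090 each in 1 of 25. The 1824 values that kept their side include the sort results and members never called. Members called higher after smoke in GFP+ cells numbered 1, and 2 with arrays centred on other odorant receptors, 2 with an intensity trend in the variance, 3 in a fit of only the 2 groups compared, 0 without smoke pools 2 and 4 and 4 with the 18 symbols put back, which also gave 1 lower. Leaving out each array in turn gave 0 to 2 higher and 0 to 0 lower. Members called lower in GFP- cells numbered 2, and 6, 1, 0 and 8 with receptor centring, only 2 groups, without both pools and with the 18 put back, and 0 to 3 with an array left out (0 to 0 higher). In the ratio 2 rose, and 0 without both pools, 7 with the 18 put back and 2 to 4 with an array left out (0 to 0 lower), the 4 without vehicle GFP- replicate 1 or 3. The sort in vehicle mice gave 68 to 77 higher and 16 to 18 lower with an array left out, and 28 lower with receptor centring. In smoke mice the ranges were 68 to 81 and 15 to 18.

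With the replicate number as a replicate block, Olfr1034 in GFP- cells had an adjusted p of 0.0671, Olfr1033 there 0.0443 and Olfr1047 in the ratio 0.00586; with the pool as a replicate block Olfr1034 had 0.0283 and Olfr1033 0.156. The fit of only the 2 groups gave no value for the ratio, which uses all 4. A filter at the vomeronasal level left 110 members and no value for Olfr1058. The cause of each change was not tested. Precision is limited by 4 arrays a group, and by dim probe sets for 15 members; the median SD within groups was 0.41 for members and 0.21 for all genes.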
